A study of Mus musculus with 10 samples.

Results

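The transcripts of 10 genes that regulate pre-mRNA splicing were examined in hematopoietic stem and progenitor cells: the SR protein genes Srsf1, Srsf2, Srsf3, Srsf5, Srsf6, Srsf7 and Srsf11, the kinase genes Clk1 and Clk4, and Rsrp1. They are 10 of the 25078 genes in the deposited count table, of which 18747 had at least 1 count in any library. These genes were chosen by their measured levels, because those levels swing between libraries, so the size of that swing and their shared movement are given below as descriptions. None of the 10 genes passed a test for a difference between the genotypes after adjustment, and their levels differed up to 2.55-fold between single mice.

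SR proteins carry an RNA recognition motif and a domain rich in arginine-serine dipeptides. They bind exonic enhancers, recruit the spliceosome and influence which alternative exons are used. CLK kinases phosphorylate the arginine-serine domain and release SR proteins from nuclear speckles. Many SR genes limit their own output through a poison exon that routes the transcript to nonsense-mediated decay, and Clk1 and Clk4 keep a share of their transcripts in the nucleus with introns still in place. In blood, SRSF2 is recurrently mutated in myeloid neoplasms.

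RNA was sequenced from LSK cells (lineage-negative, Sca-1+, c-Kit+) of mouse bone marrow, with 1 library for each of 5 CM and 5 CM/miR-126Δ/Δ animals. CM mice were Cbfb56M/+/Mx1-Cre and expressed the Cbfb-MYH11 fusion of inv(16) acute myeloid leukemia. CM/miR-126Δ/Δ mice carried miR126flox/flox in addition, on the same C57BL/6 background. Both genotypes received poly(I:C), which induces the interferon-responsive Mx1-Cre in hematopoietic and other cells, at 6 to 8 weeks of age, and LSK cells were taken at a preleukemic stage 6 weeks after induction. All 10 mice therefore carried the fusion, and a mouse without it was not analysed here.

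The libraries held 23649233 to 33202086 counts in CM mice and 24141663 to 26615091 in CM/miR-126Δ/Δ mice, so that each gene rested on 725 to 22269 counts per library. Counts at the targeted locus were too low for more than a rough check of the labels and did not go against them: Mir126a, the precursor of miR-126, was counted 4, 5, 0, 2 and 3 times in CM mice 1 to 5 and never in the 5 CM/miR-126Δ/Δ libraries. All 7 LSK markers had a mean RPKM (reads scaled to exon length and library size) of at least 1. Their summed CPM (reads scaled to library size alone) was 2356 to 2748 in CM mice and 2149 to 2697 in the CM/miR-126Δ/Δ group. Markers of 7 other cell types were also summed in each library. They reached at most 361 CPM for 6 neutrophil genes, 47.9 CPM for mature erythroid genes (3 of 6 with a count), 6.61 CPM for B cell genes and 12.1 CPM for T cell genes. Macrophage genes ranged from 64.5 to 167 CPM, endothelial genes from 166 to 216 CPM, most of it Pecam1, and mast cell and basophil genes from 80.6 to 166 CPM. Fewer cells of a type and less RNA per cell cannot be told apart in these bulk libraries. Xist and Y-linked counts showed that mice 1 to 3 of each genotype were female and mice 4 and 5 male. Other differences between these sets of mice cannot be told apart from sex.

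To show the DNA from which these genes are transcribed, the 200 bases before the annotated start were taken from RefSeq (GRCm38.p6, the mm10 coordinates) for 5 genes. Srsf3 (chr17:29032460-29032659, + strand), Srsf6 (chr2:162931308-162931507, + strand) and Srsf7 (chr17:80207306-80207505, − strand) are shown because their levels moved together most closely. Clk4 (chr11:51262914-51263113, + strand) and Rsrp1 (chr4:134923425-134923624, + strand) are shown as a kinase gene and as the gene whose levels followed the others least. Capitals mark matches to the motifs named in the next paragraph on either strand, and each stretch runs 5′ to 3′ on the strand of its gene.
Srsf3: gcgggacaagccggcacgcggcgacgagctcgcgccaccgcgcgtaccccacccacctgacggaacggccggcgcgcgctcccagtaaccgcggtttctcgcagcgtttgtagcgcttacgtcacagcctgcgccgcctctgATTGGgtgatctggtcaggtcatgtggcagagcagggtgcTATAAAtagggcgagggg
Srsf6: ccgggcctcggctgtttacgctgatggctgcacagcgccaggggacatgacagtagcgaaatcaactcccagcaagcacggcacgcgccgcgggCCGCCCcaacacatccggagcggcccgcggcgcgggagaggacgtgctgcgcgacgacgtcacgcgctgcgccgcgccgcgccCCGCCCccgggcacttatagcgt
Srsf7: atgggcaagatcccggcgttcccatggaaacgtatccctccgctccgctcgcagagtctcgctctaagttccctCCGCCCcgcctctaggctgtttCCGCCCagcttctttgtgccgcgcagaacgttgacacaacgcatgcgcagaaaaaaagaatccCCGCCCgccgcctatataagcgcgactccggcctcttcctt
Clk4: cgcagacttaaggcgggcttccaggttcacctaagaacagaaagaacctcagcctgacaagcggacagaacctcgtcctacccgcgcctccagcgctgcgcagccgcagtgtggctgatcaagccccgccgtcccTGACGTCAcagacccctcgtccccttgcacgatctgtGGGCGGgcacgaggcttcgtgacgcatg
Rsrp1: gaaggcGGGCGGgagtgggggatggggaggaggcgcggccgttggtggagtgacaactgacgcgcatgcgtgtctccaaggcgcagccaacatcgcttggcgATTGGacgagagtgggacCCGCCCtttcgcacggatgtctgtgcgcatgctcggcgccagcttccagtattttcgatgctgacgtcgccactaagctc

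Promoter windows of 300 bases, from 250 before to 50 after the start, were matched for 9 of the 10 genes and searched on both strands. Their GC content was 56.0% to 70.0% with a median of 65.0%, against a median of 52.7% over 32851 RefSeq windows. A GC box (GGGCGG) stood in 8 of the 9 windows, all except that of Srsf3, against 35.7% of all windows. The CCAAT box (CCAAT) was present in 4 windows, against 37.4%, and the TATA box (TATAAA) in those of Srsf2 and Srsf3, against 13.6%. The ETS core (CCGGAAG) was found at Srsf5, Srsf7 and Srsf11, against 8.86%. Of the 9 windows, only that of Clk4 held the full cAMP response element (TGACGTCA), at positions −65 to −58, which 1.79% of all windows hold. The heat shock element (GAANNTTC, 7.86% of windows), the AP-1 element (TGANTCA, 7.81%), the E-box (CACGTG, 7.15%) and the YY1 core (AAGATGGC, 2.75%) were in none of the 9. In the stretches of 200 bases, GC boxes overlapped each other in Srsf2 and a GC box overlapped an ETS core in Srsf5, and the palindromic cAMP response element was counted once.

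Per kilobase of exon, all 10 genes were well expressed. Srsf2 was the most abundant, with 191 ± 20.1 RPKM in CM and 174 ± 21.4 RPKM in CM/miR-126Δ/Δ mice (mean ± SD, n = 5 each). Rsrp1 followed with 143 ± 38.8 and 120 ± 46.2 RPKM, and Clk4 was the least abundant, with 21.6 ± 3.95 and 20.2 ± 3.81 RPKM. Averaged over the 10 mice, the order below Srsf2 (182 RPKM) and Rsrp1 (132 RPKM) was Srsf6 at 107, Srsf1 at 99.0, Srsf5 at 90.9, Srsf7 at 85.1, Clk1 at 61.0, Srsf3 at 49.5 and Srsf11 at 35.1 RPKM. From Rsrp1 to Srsf7, neighbours in this order lay within the larger SD of the pair, as did Clk1 and Srsf3. Srsf2, Srsf11 and Clk4, and the step from Srsf7 to Clk1, were more widely spaced. In mm10, the genes lie on chromosomes 1 (Clk1), 2 (Srsf6), 3 (Srsf11), 4 (Rsrp1), 11 (Srsf1, Srsf2 and Clk4), 12 (Srsf5) and 17 (Srsf3 and Srsf7). Clk4 overlapped a counted gene, BC049762 on the opposite strand, which had a mean of 5.5 counts. A processed copy of Srsf3, Srsf3-ps in RefSeq, has no row of its own among the counted genes, so reads could be shared with it.

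Srsf3 and Srsf7 encode small shuttling SR proteins that also act as adaptors for mRNA export. Srsf3 was measured at 181, 189, 139, 141 and 141 CPM in CM mice 1 to 5, and at 171, 146, 109, 182 and 106 CPM in CM/miR-126Δ/Δ mice 1 to 5. Srsf7 was measured at 291, 303, 224, 212 and 233 CPM in CM mice and at 258, 209, 163, 270 and 174 CPM in CM/miR-126Δ/Δ mice. In both genes CM mice 1 and 2 and CM/miR-126Δ/Δ mice 1 and 4 were high, CM/miR-126Δ/Δ mice 3 and 5 were low, and the genotypes overlapped. The log2 difference, CM/miR-126Δ/Δ minus CM, was −0.15 (SE 0.149, adjusted p = 0.796, edgeR) for Srsf3 and −0.23 (SE 0.142, adjusted p = 0.765) for Srsf7.

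Srsf5 and Srsf6 encode SR proteins that bind exonic enhancers and promote exon inclusion. Srsf6 had 419, 475, 383, 367 and 401 CPM in CM mice and 388, 356, 271, 437 and 279 CPM in CM/miR-126Δ/Δ mice. Srsf5 had 134, 210, 129, 153 and 183 CPM in CM mice and 151, 150, 102, 196 and 102 CPM in CM/miR-126Δ/Δ mice. CM/miR-126Δ/Δ mice 3 and 5 were again the lowest of all, while CM mouse 2 was the highest. Srsf6 had the smallest p of the 10 genes, with a log2 difference of −0.24 (SE 0.123, adjusted p = 0.764), and that of Srsf5 was −0.21 (SE 0.176, adjusted p = 0.765).

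Srsf1, the founding SR protein and a proto-oncogene, was the most evenly expressed in CM/miR-126Δ/Δ mice after Srsf11. Its levels were 674, 574, 604, 478 and 459 CPM in CM mice and 589, 562, 535, 552 and 474 CPM in CM/miR-126Δ/Δ mice. Srsf2, which marks nuclear speckles, had 399, 398, 309, 367 and 343 CPM in CM mice and 366, 312, 299, 383 and 295 CPM in CM/miR-126Δ/Δ mice. Srsf1 was high in CM mice 1 to 3 and lower in mice 4 and 5, and both genes overlapped between the genotypes. The log2 difference was −0.04 (SE 0.106, adjusted p = 0.946) for Srsf1 and −0.13 (SE 0.0944, adjusted p = 0.765) for Srsf2. Srsf11, an SR-related protein, ranged from 134 to 174 CPM in CM mice and from 138 to 160 CPM in CM/miR-126Δ/Δ mice, with a log2 difference of −0.06 (SE 0.0753, adjusted p = 0.859).

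Clk1 and Clk4 encode closely related dual-specificity kinases. Clk1 had 159, 273, 186, 162 and 176 CPM in CM mice and 187, 188, 107, 270 and 175 CPM in CM/miR-126Δ/Δ mice. CM mouse 2 and CM/miR-126Δ/Δ mouse 4 were high and CM/miR-126Δ/Δ mouse 3 was low, a range of 2.55-fold that was the widest of the 10 genes. Clk4 had 43.7, 58.6, 52.1, 37.7 and 41.1 CPM in CM mice and 48.1, 38.5, 31.6, 51 and 48.5 CPM in CM/miR-126Δ/Δ mice. Its highest and lowest libraries were those of Clk1. The log2 difference was −0.04 (SE 0.197, adjusted p = 0.977) for Clk1 and −0.10 (SE 0.139, adjusted p = 0.881) for Clk4.

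Rsrp1 encodes an arginine- and serine-rich protein whose role is little studied. Its levels were 204, 230, 276, 173 and 132 CPM in CM mice and 128, 117, 124, 230 and 252 CPM in CM/miR-126Δ/Δ mice. It was at its highest in CM mouse 3, as Srsf11 was, and in CM/miR-126Δ/Δ mouse 5, and CM/miR-126Δ/Δ mice 1 to 3 were all low. The genotypes overlapped, and the log2 difference was −0.25 (SE 0.232, adjusted p = 0.769).

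**Figure D1:**
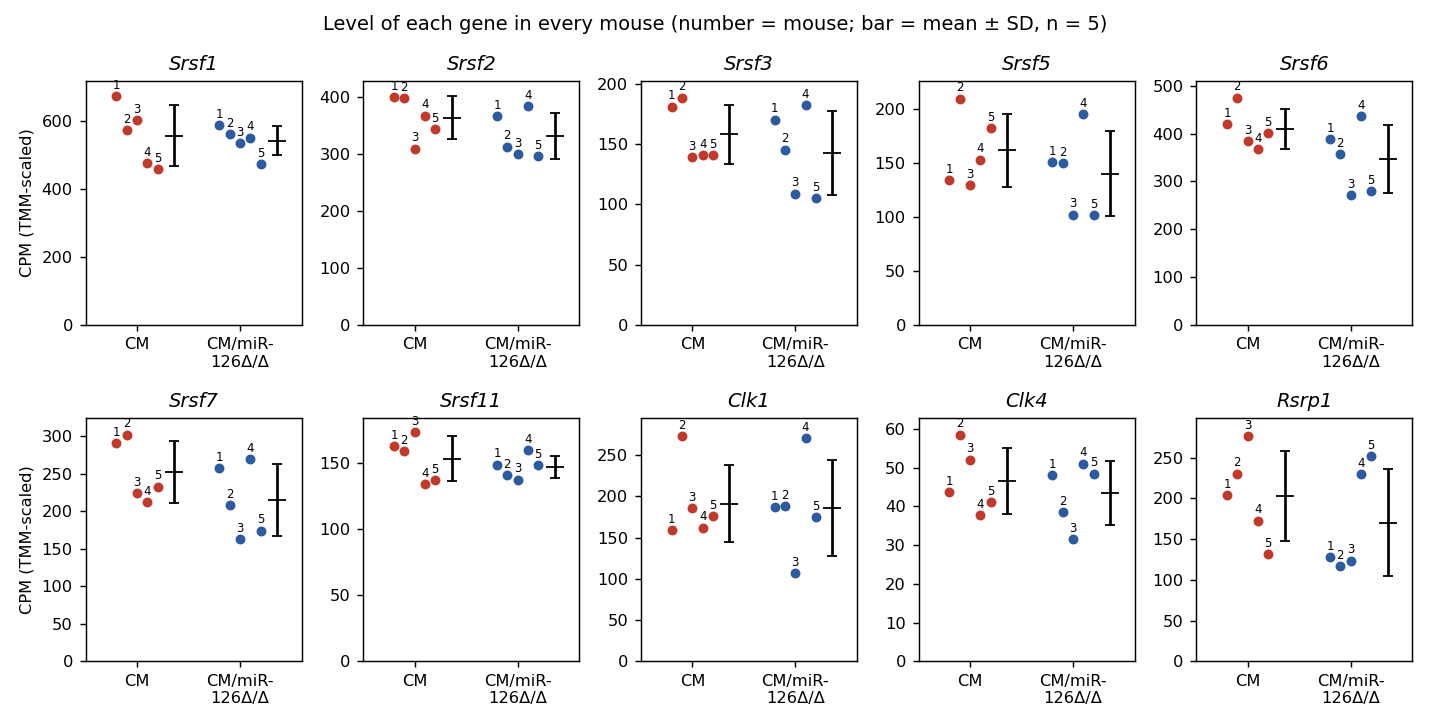
Level of each of the 10 genes (TMM-scaled CPM, linear axis from 0) in every CM mouse (red) and CM/miR-126Δ/Δ mouse (blue), numbered by mouse, with the mean ± SD of 5 mice in black. The genotypes overlap in every panel, and Clk1 spans 107 to 273 CPM.

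For the genotype comparison, which asks whether loss of miR-126 altered these transcripts in fusion-expressing LSK cells, none of the 10 genes was called. The study's cutoffs were an unadjusted p of 0.01 or less, 1.5-fold or more and an average RPKM of 1 in either genotype. With these cutoffs, the edgeR fit used here called 0 of the 10 genes, against 54 of 18747 genes (0.288%). The paper reports more differentially expressed genes for these genotypes, and the reason for that difference was not tested. At an unadjusted p under 0.05 edgeR called 0 of 10, against 1239 genes (6.61%). At an adjusted p under 0.05 it called 0 of 10, against 2 genes (0.0107%). DESeq2 called 0 of 10 as well, with 0 at an unadjusted p under 0.05. All 10 point estimates lay below 0, with a median log2 difference of −0.14, beside −0.02 over the 11682 genes expressed at an average RPKM of 1 or more, of which 57.5% were lower. Because these genes share their movement across mice, the 10 signs are not 10 separate observations, and Srsf1, Srsf11 and Clk1 changed sign when 1 mouse was left out. The genotypes overlapped in all 10 genes, whereas 1.38% of the 11682 genes did not overlap.

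With mouse number as a block, Srsf6 and Srsf7 came under an unadjusted p of 0.05, but neither passed the adjusted test. The estimates were −0.26 on the log2 scale for Srsf6 (SE 0.0992, adjusted p = 0.446) and −0.25 for Srsf7 (SE 0.106, adjusted p = 0.506), both lower in 4 of 5 pairs. The same fit put 8.89% of all genes under the unadjusted p.

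The 10 genes were chosen for levels that swing between libraries, so their spread among mice of the same genotype is only described here. The SD of log2 CPM within a genotype had a median of 0.279 over the 10 genes, beside 0.140 over the 11682 genes. Among 3614 genes averaging 20 RPKM or more, the median was 0.113, which all 10 genes exceeded, and 7 of them lay above the 90th percentile of 0.205. Rsrp1 had the widest SD (0.476), followed by Clk1 (0.405) and Srsf5 (0.356), and Srsf11 the narrowest (0.128). CM/miR-126Δ/Δ mice had a larger SD than CM mice in 8 of the 10 genes, all except Srsf1 and Srsf11, while 51.2% of the 11682 genes had the larger SD in CM/miR-126Δ/Δ mice. This difference in spread was not tested.

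By the mean of the 10 genes, a small number of libraries stood out. In CM/miR-126Δ/Δ mouse 4 all 10 genes lay above their genotype mean, by 0.34 on the log2 scale on average. In CM/miR-126Δ/Δ mouse 3 all 10 lay below it, with a mean of −0.33. CM mouse 2 also had all 10 genes above its genotype mean (0.25), and CM mice 4 and 5 each had 9 of 10 below it (−0.17 and −0.14). Mean deviations of the other 5 libraries lay between −0.09 and 0.11, where single genes could move apart. In CM/miR-126Δ/Δ mouse 5 (mean −0.09), Srsf3 was at −0.40 and Srsf5 at −0.41, but Rsrp1 was at 0.65. Of the 10 genes, 5 had their lowest CM/miR-126Δ/Δ value in mouse 3 and 8 had their highest in mouse 4.

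**Figure D2:**
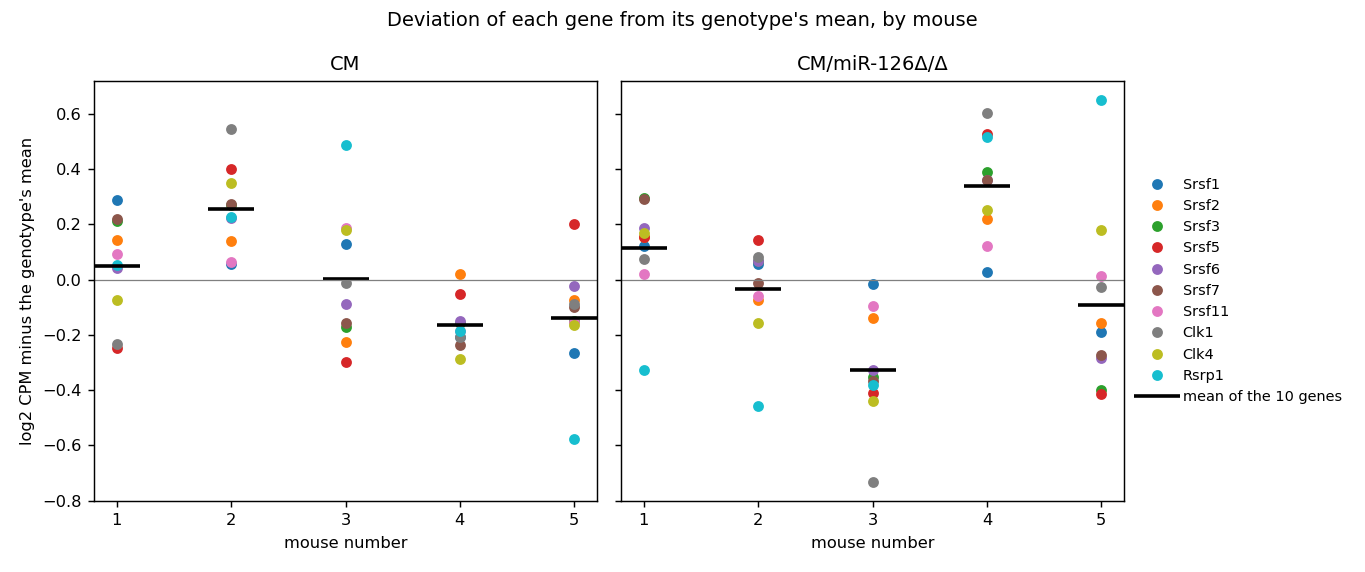
Deviation of each gene's log2 CPM from the mean of its genotype (y axis) in each of 5 CM mice (left) and 5 CM/miR-126Δ/Δ mice (right), with a black bar for the mean of the 10 genes. All 10 points lie above 0 in CM mouse 2 and CM/miR-126Δ/Δ mouse 4 and below 0 in CM/miR-126Δ/Δ mouse 3. Rsrp1 leaves the other genes in CM mice 3 and 5 and CM/miR-126Δ/Δ mice 1, 2 and 5.

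Correlations of these deviations over the 10 libraries described how closely the genes moved together. The mean over the 45 pairs was 0.525 and 26 pairs exceeded 0.5, as 11.5% of all pairs of the 11682 genes did. All libraries share a scaling step, and the libraries, not the pairs, are the observations. Srsf2, Srsf3, Srsf5, Srsf6 and Srsf7 formed the tightest group, with pairwise correlations of 0.685 to 0.978. Srsf3 and Srsf7 reached 0.978, Srsf3 and Srsf6 0.959, and Srsf6 and Srsf7 0.951. These are the genes with the low values in CM/miR-126Δ/Δ mice 3 and 5 described above.

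Srsf11, Clk4 and Rsrp1 correlated with each other at 0.705 to 0.751. Between these 3 genes and the 5 SR genes the mean was 0.289, and Rsrp1 ran from −0.0951 with Srsf5 to 0.148 with Srsf7. Clk1 correlated at 0.543 to 0.829 with the 5 SR genes, at 0.836 with Clk4, at 0.481 with Srsf11 and at 0.458 with Rsrp1. Srsf1 was closest to Srsf11 (0.710) and stood at −0.00494 with Srsf5. Against the mean of the other 9 genes, Srsf7 had the highest correlation (0.923) and Rsrp1 the lowest (0.318).

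Without CM/miR-126Δ/Δ mice 3 and 4, the mean of all 45 pairs was 0.364, that of the 5 SR genes 0.766, that of Srsf11, Clk4 and Rsrp1 0.691, and that between both groups −0.0398. Srsf3 and Srsf7 still correlated at 0.966 over these 8 libraries. When library totals were used without scaling factors, the mean of the 45 pairs was 0.603, and that of all gene pairs moved from 0.00383 to 0.103.

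**Figure D3:**
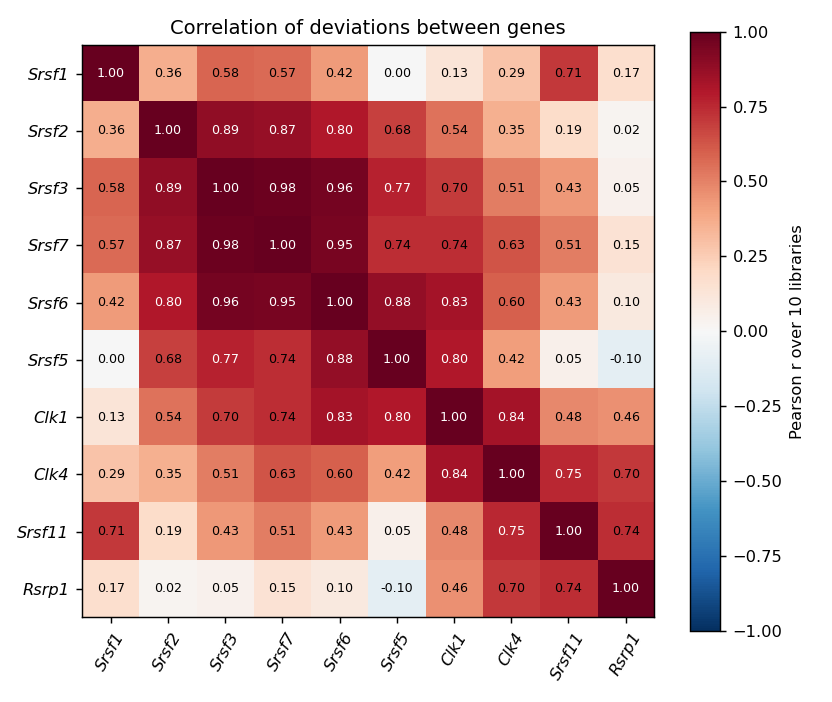
Pearson correlation between the genes' deviations from the genotype mean over 10 libraries, as a colour scale from −1 (blue) to 1 (red) with each value printed. The block from Srsf2 to Srsf5 ranges from 0.685 to 0.978, and Rsrp1 is pale against that block but at 0.705 with Clk4 and 0.736 with Srsf11.

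Mice of the same number in both genotypes had neighbouring library numbers, and their deviations over 11682 genes correlated at 0.172 to 0.465. For CM mice 2 and 5, a CM/miR-126Δ/Δ mouse of another number correlated better (0.421 against 0.246, and 0.499 against 0.172). The share of log2 variance between mouse numbers was 79.2% for Srsf1, 64.0% for Srsf2 and 62.9% for Srsf3. It was 47.9% for Srsf7, 47.1% for Srsf5, 43% for Clk1 and 36.7% for Srsf6. The share was 15.8% for Srsf11, 9.12% for Clk4 and 6.28% for Rsrp1. Mouse number takes 4 of the 9 degrees of freedom, or 44.4%, and genotype 11.1%, which are the shares that values with no structure would have on average. The median of the 10 genes between mouse numbers was 45.0%, close to that level, beside 52.6% for the 11682 genes, and the share between genotypes had medians of 9.92% and 8.21%. In pair 4 the genes moved apart: 9 of 10 lay below the genotype mean in the CM mouse and all 10 above it in the CM/miR-126Δ/Δ mouse.

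Sex divided the mice within each genotype, and the genotype difference was compared between females and males. Rsrp1 averaged 237 CPM in CM females and 123 CPM in CM/miR-126Δ/Δ females (n = 3 each), against 152 and 241 CPM in males (n = 2 each). Females and males did not overlap within either genotype. Its interaction, male minus female, was 1.61 on the log2 scale (SE 0.188, adjusted p = 0.0195, edgeR), which made it the 1 gene of 18747 called (0.00533%). Earlier results of these data had shown this value, and it is given as a description. The call was lost with mouse number as a block (adjusted p = 0.121), with a filter on low counts (adjusted p = 0.118), and on leaving out CM mouse 5 or CM/miR-126Δ/Δ mouse 1, 2, 4 or 5 (adjusted p = 0.0618 to 0.242). It was kept with DESeq2 (adjusted p = 2.2e-11), and in edgeR with RLE factors (0.0243) or unscaled totals (0.0303). Leaving out CM mouse 1, 2, 3 or 4 or CM/miR-126Δ/Δ mouse 3 also kept it (edgeR adjusted p = 0.0108 to 0.0346).

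Clk4 averaged 51.4 CPM in CM females and 39.4 CPM in CM/miR-126Δ/Δ females, and 39.4 and 49.8 CPM in males. Its interaction was 0.72 (SE 0.219, adjusted p = 0.9999). Srsf11 averaged 165 and 143 CPM in females and 136 and 154 CPM in males, with an interaction of 0.40 (SE 0.113, adjusted p = 0.9999). Rsrp1, Clk4 and Srsf11 were the 3 of 10 genes with an unadjusted p under 0.05, against 2.57% of all genes. The correlations above were computed from the same deviations, so the grouping of these 3 genes there is not a separate observation. For Srsf2, Srsf3, Srsf5, Srsf6 and Srsf7 the interaction was 0.06 to 0.37, and for Srsf1 it was 0.27. That of Clk1 was 0.75 (SE 0.362, adjusted p = 0.9999), larger than those of Clk4 and Srsf11 but with a wider error. These 7 genes had unadjusted p-values above 0.05. Since sex coincides with mouse number, a difference between days or litters cannot be told apart from one between the sexes.

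**Figure D4:**
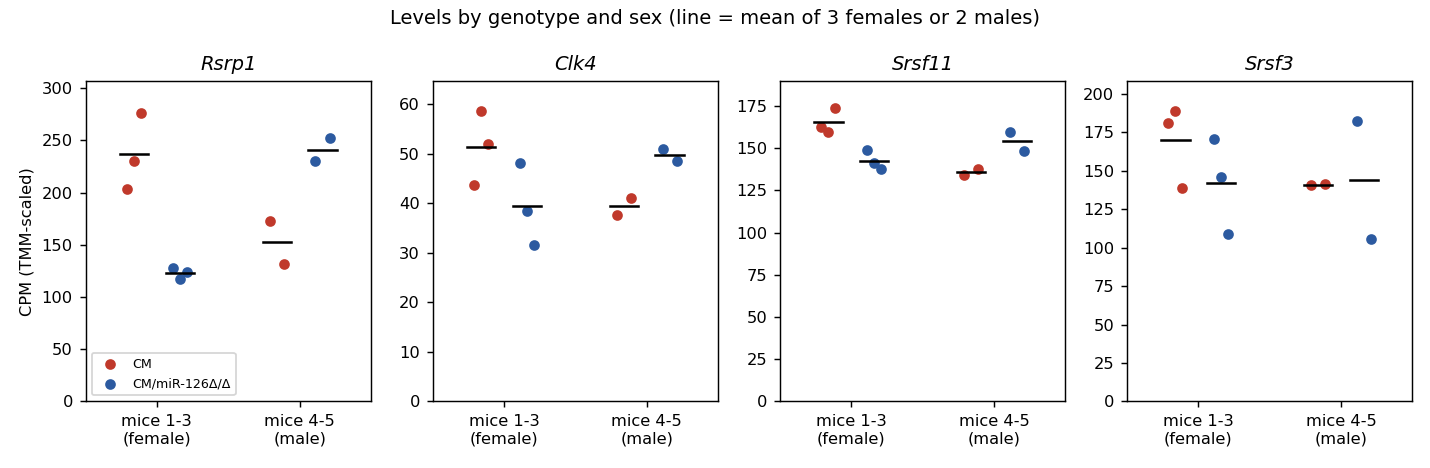
Levels of Rsrp1, Clk4, Srsf11 and Srsf3 (TMM-scaled CPM, axis from 0) in CM (red) and CM/miR-126Δ/Δ (blue) mice, split into mice 1 to 3 (female) and 4 to 5 (male), with a line at each mean. Rsrp1 means were 237 and 123 CPM in females and 152 and 241 CPM in males, whereas Srsf3 values overlap in both sexes.

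Measures of the libraries moved in part with the genes. CM/miR-126Δ/Δ mouse 3, the lowest, had the lowest RNA concentration in the labels (16.1 ng/µl), the largest share of counts on the ribosomal gene Rn45s (22.6%) and the fewest genes with a count (15983). CM/miR-126Δ/Δ mouse 4, the highest, had the largest concentration of its genotype (29.5 ng/µl), 17.2% on Rn45s and 16698 genes. Over the 10 libraries, as deviations from the genotype mean, the mean profile of the 10 genes correlated at −0.47 with the Rn45s share (rho −0.43), at 0.41 with the concentration (rho 0.52) and at 0.19 with total counts (rho 0.25). Without the 2 libraries farthest from the median of each measure, these correlations were −0.59, 0.62 and 0.34. Summed LSK markers ranged within 2149 to 2748 CPM, and their mean profile correlated with the 10 genes at −0.530. The neutrophil sum was 4.22 CPM in CM/miR-126Δ/Δ mouse 3 and 361 CPM in mouse 4, and the B cell sum was 0.348 and 6.61 CPM. Over all libraries the marker profiles correlated with the 10 genes at 0.668 for B cells, 0.195 for neutrophils and 0.0552 for mature erythroid cells. The values were −0.391 for T cells, −0.429 for macrophages, −0.467 for mast cells and basophils and −0.472 for endothelial cells. Those for B cells, T cells and endothelial cells each rested on 1 gene at a mean RPKM of 1: Cd79a, Cd4 and Pecam1. The less abundant T cell genes Cd8a (rho 0.77), Cd3e (0.6) and Cd3g (0.309) went the opposite way to Cd4 (rho −0.394). The less abundant endothelial genes Kdr (rho 0.564) and Cdh5 (0.358) likewise went the opposite way to Pecam1 (rho −0.503). The part of these measures in the swing was not tested.

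Immediate early genes, which cells switch on within minutes of stimulation or handling, ranged widely between the same mice. The summed level of 9 such genes was 3012, 6175, 1190, 3110 and 3731 CPM in CM mice 1 to 5 and 2463, 2316, 329, 3325 and 423 CPM in CM/miR-126Δ/Δ mice 1 to 5. CM mouse 2 was the highest, and CM/miR-126Δ/Δ mice 3 and 5 were the lowest. Fos, a subunit of AP-1, was at 1220 CPM in CM mouse 2, at 464 CPM in CM/miR-126Δ/Δ mouse 4 and at 17.1 CPM in CM/miR-126Δ/Δ mouse 3. Egr1, a zinc finger transcription factor, was at 1413, 928 and 14.3 CPM in the same 3 mice.

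All 9 immediate early genes correlated with the mean profile above 0.5, as 11.6% of all genes compared did. Atf3 (0.801) and Jun (0.767) led, and Ier2 (0.681) and Egr1 (0.647) were the lowest. All 9 had their lowest CM/miR-126Δ/Δ levels in mice 3 and 5, so they are not 9 separate observations. The log2 of their summed CPM correlated with the mean profile at 0.72 (rho 0.73), and at 0.53 without CM/miR-126Δ/Δ mice 3 and 5. None of the 9 was called between genotypes and 0 had an unadjusted p under 0.05, and the smallest p was that of Dusp1, a MAP kinase phosphatase (log2 difference −0.91, SE 0.447, adjusted p = 0.764). Their median log2 difference was −0.91. In CM mouse 3, with 1190 CPM, the mean deviation of the 10 genes was 0.00, but single genes lay on both sides. Srsf2, Srsf3, Srsf5, Srsf6 and Srsf7 were below their genotype mean, by −0.09 (Srsf6) to −0.30 (Srsf5). Srsf1, Srsf11, Clk4 and Rsrp1 were above it, by 0.13 (Srsf1) to 0.49 (Rsrp1). The part of the immediate early response in the swing was not tested.

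**Figure D5:**
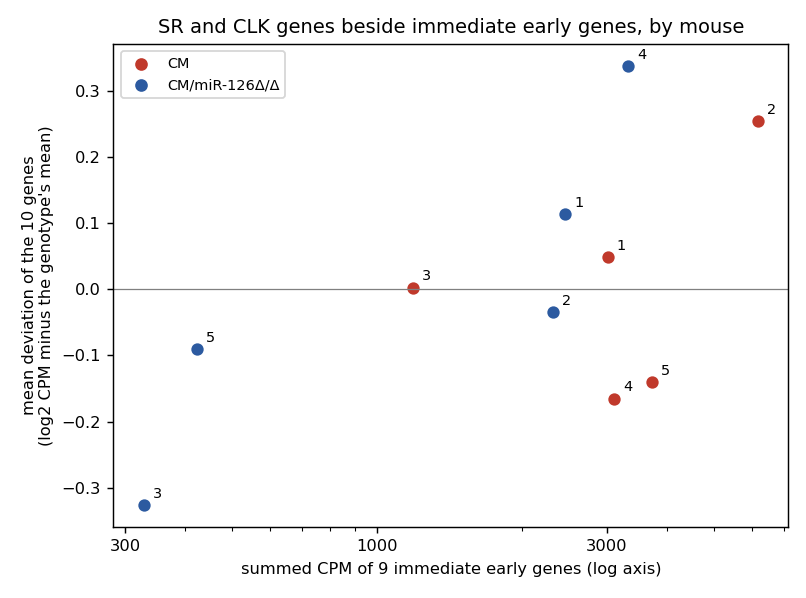
Mean deviation of the 10 genes from the genotype mean (log2, y axis) against the summed CPM of 9 immediate early genes (log axis) in 5 CM (red) and 5 CM/miR-126Δ/Δ (blue) mice, numbered by mouse. CM/miR-126Δ/Δ mouse 3 is lowest on both axes (329 CPM), while CM mice 4 and 5 combine 3110 and 3731 CPM with deviations below 0.

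Heat shock genes moved in part the same way. Of 8 genes, 4 correlated above 0.5 with the mean profile, against 11.6% of all genes compared. Dnajb1, a co-chaperone of HSP70, was at 0.790 and Hsp90aa1 at 0.582, while Hspd1 was at −0.0664 and Hspa1b at 0.150. None was called, 1 had an unadjusted p under 0.05 (Hspa8, log2 difference −0.23, SE 0.101, adjusted p = 0.748), and the median log2 difference was −0.25. Hspa1a, the inducible HSP70, had a log2 difference of −1.30 (SE 0.767, adjusted p = 0.765).

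Other genes of the splicing machinery were read against all genes compared, of which 11.6% correlated above 0.5 with the mean profile and 13.4% below −0.5. Among 29 further SR and RS-domain genes, of which 28 had a mean RPKM of at least 1, 9 correlated above 0.5 with the mean profile and 2 below −0.5. Rbm39, a U2AF-related splicing factor, had the highest correlation (0.881), with 475 CPM in CM mouse 2, 284 CPM in CM/miR-126Δ/Δ mouse 3 and 471 CPM in CM/miR-126Δ/Δ mouse 4. Tra2a, an SR-like activator, followed (0.872), while Dhx8, a helicase that releases spliced mRNA, was at −0.683 and Rnps1, of the exon junction complex, at −0.661. None of the 29 was called and 2 had an unadjusted p under 0.05: Rnps1 (log2 difference −0.19, SE 0.0627, adjusted p = 0.661) and U2af2, which binds the polypyrimidine tract (−0.17, SE 0.0694, adjusted p = 0.746). Their median log2 difference was −0.04.

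Of 12 genes for SR kinases, phosphatase subunits and the SR importin, 11 averaging 1 RPKM or more, 2 correlated above 0.5: Clk3 (0.686) and Prpf4b, a spliceosomal kinase (0.653). Srpk2, a cytoplasmic SR kinase, was at −0.505 and Dyrk1b at −0.297. None was called and 0 had an unadjusted p under 0.05. The smallest p was that of Clk2 (log2 difference −0.19, SE 0.108, adjusted p = 0.765), and the median difference was −0.02.

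Of the 37 core spliceosome genes, 3 correlated above 0.5 with the mean profile and 4 below −0.5, neither share above that of all genes. Sf3b1, the branch site factor mutated in myelodysplasia, was at 0.865 and the U1 protein gene Snrpc at 0.747, while Prpf6 and Snrnp200, of the U5 particle, were at −0.810 and −0.618. None was called, and 4 had an unadjusted p under 0.05, all lower, led by Snrpd3 (log2 difference −0.16, SE 0.0620) and Prpf3 (−0.15, SE 0.0592), both with an adjusted p of 0.746. Their median difference was −0.07.

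Of 24 hnRNP genes, whose proteins often oppose SR proteins at exons, 5 correlated above 0.5 and 2 below −0.5. Hnrnpa1 was at 0.884 and Hnrnph1 at 0.857, while Hnrnpr and Hnrnpul1 were at −0.607 and −0.605. None was called and 0 had an unadjusted p under 0.05, with the smallest for Hnrnpdl (log2 difference −0.26, SE 0.137, adjusted p = 0.764) and a median difference of −0.06. Among 10 genes of nonsense-mediated decay, the pathway that destroys poison exon transcripts, 0 correlated above 0.5. The highest were Upf3b (0.475) and Smg5 (0.439), and Smg8 was the lowest (−0.168). None was called, 1 had an unadjusted p under 0.05 (Smg5, log2 difference −0.15, SE 0.0619, adjusted p = 0.746), and the median difference was −0.04. DESeq2 called 0 genes in each of these lists at an adjusted p under 0.05.

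The genes whose course was most like the mean profile were ranked over 11672 others. Rassf1, a tumor suppressor that acts on microtubules and Hippo signaling, led with 0.957, followed by Ankrd10 (0.938), the autophagy gene Becn1 (0.916), the kinase gene Stk11 (0.914) and Sfpq (0.909), a paraspeckle protein. Tfb2m (0.908), Tmem183a (0.906), the replication kinase gene Cdc7 (0.906), the snoRNA host Snhg1 (0.902) and Prpf39 (0.902), of the U1 particle, completed the 10. Snhg1 spanned 2.74-fold over the 10 libraries, and Sfpq 1.29-fold. Among the most opposite were Orai1 (−0.968), a calcium channel subunit, E130308A19Rik (−0.964), Scamp2 (−0.963) and Ap1b1 (−0.945). Orai1 was at 45.8 CPM in CM/miR-126Δ/Δ mouse 3 and 35.4 CPM in mouse 4, the reverse of the order of the 10 genes.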

How the data were processed

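RNA-seq of LSK cells from 5 CM and 5 CM/miR-126Δ/Δ mice was analysed, 1 library per mouse, with genotype and number taken from the sample titles. The deposited counts are whole numbers of 51-base single-end reads per RefSeq gene, without normalization. The authors depleted ribosomal RNA, trimmed the reads, aligned them to mm10 with Tophat and counted with HTSeq (0.6.1p1 in the submitters' processing notes). The strand setting is not given in the sources used here, and reads over introns and separate isoforms are not resolved. The second deposited table, of scaled values, was not used.

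The 10 genes and all gene lists were chosen with earlier results of these data known. Counts of 18747 genes entered edgeR 4.0.16 under R 4.3.3 (TMM scaling, quasi-likelihood F-test in the edgeR 3 form, two-sided, genotype as the only term), with Benjamini-Hochberg adjustment over all genes, as in the study's methods. CPM used TMM-scaled library sizes, log2 CPM a prior count of 2, and RPKM the deposited exon lengths. Correlations used deviations of log2 CPM from the genotype mean. Named from each list were the 2 genes with the smallest p and the 2 with the highest and the 2 with the lowest correlation with the mean of the standardized deviations of the 10 genes, and from all other genes averaging 1 RPKM or more the 10 most alike and the 5 most opposite. Some genes that this rule names are not reported here.

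Mouse number was used to pair the mice. Same-numbered mice, whose labels carry neighbouring library numbers, correlated at 0.172 to 0.465 over 11682 genes (mean 0.330). The mean of −0.0845 for other pairs follows largely from taking deviations from the genotype mean, and is not separate evidence for the pairing. Same-numbered mice were also of the same sex, so a shared sex cannot be told apart from a shared number here. Of 120 pairings, 4 scored as high, and CM mice 2 and 5 each matched a mouse of another number better. The labels do not say what a number marks. The interaction of genotype and sex was fitted with sex read from Xist and Y-linked counts. The libraries differed by more than counting error, with a chi-square of at least 9.98 per degree of freedom. Count tests were checked on simulated counts drawn separately for each gene, so shared movement of genes across mice was not part of that check. Alternatives were DESeq2 1.42.0, RLE factors, unscaled totals, other filters, robust dispersions, a replicate block, sex as covariate, a prior count of 0.5, and each mouse left out. CM/miR-126Δ/Δ mice 3 and 4 were left out together as an alternative chosen after seeing the data.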

Additional observations from a re-analysis of the deposited data

Results flagged for a closer look

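Clk1 in CM mouse 2 was at 273 CPM, and the next CM mouse was at 186 CPM. The gap took 0.771 of the range of the 5 CM mice. It was the only library that stood apart in this way among 36 groups of 5 examined, where chance gives about 1.8.

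The genotype difference of Rsrp1 differed between females and males by 1.61 on the log2 scale in the interaction test. Rsrp1 was lower in CM/miR-126Δ/Δ females and higher in CM/miR-126Δ/Δ males, with no overlap between genotypes within either sex.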

How the results depend on the processing

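The counts of genes depended on the fit. For the genotype comparison, 54 genes at the study's cutoffs became 115 with a replicate block, 82 without CM/miR-126Δ/Δ mice 3 and 4, and 33 to 127 with 1 mouse left out (fewest without CM/miR-126Δ/Δ mouse 5, most without CM mouse 3). The 2 genes at an adjusted p under 0.05 became 45 with DESeq2, 4 with a filter on low counts, 1 with unscaled totals, 20 with the replicate block, 4 with sex as covariate, 7 without CM/miR-126Δ/Δ mice 3 and 4, and 1 to 7 with 1 mouse left out. Of the 10 genes, 0 at an unadjusted p under 0.05 became 2 with the replicate block, 1 without CM/miR-126Δ/Δ mice 3 and 4, and 0 to 2 with 1 mouse left out, while none was called at the study's cutoffs under any alternative run. With 1 mouse left out, 8 to 10 genes were lower in CM/miR-126Δ/Δ, and the log2 difference ran from −0.089 to 0.049 for Srsf1, from −0.093 to 1.9e-05 for Srsf11 and from −0.20 to 0.12 for Clk1. The 1 gene with an interaction became 8 with DESeq2, 0 with the filter on low counts, 0 with the replicate block and 0 to 4 with 1 mouse left out. For the 10 genes these counts were 1, then 0 with the filter, 0 with the block and 0 to 1 with 1 mouse left out, and 3 at an unadjusted p under 0.05 became 5 with the block and 3 to 8 with 1 mouse left out. The Rsrp1 interaction stayed between 1.43 and 1.82. That of Srsf5 reversed to −0.025 with the block, and leave-one-out ranges crossed 0 for Srsf2 (−0.083 to 0.29), Srsf3 (−0.15 to 0.63), Srsf5 (−0.48 to 0.45) and Srsf6 (−0.12 to 0.52). The mean pairwise correlation of 0.525 was 0.603 with unscaled totals, 0.633 within the replicate block, 0.364 without CM/miR-126Δ/Δ mice 3 and 4 and 0.427 to 0.610 with 1 mouse left out. The cause of these shifts was not tested. The replicate block changed no other call. Precision was limited by 5 mice per genotype, with 2 males in each.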

Other observations

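Among 7 nuclear-retained and snoRNA host transcripts, 6 averaged 1 RPKM or more and were compared. Of these, 4 correlated above 0.5 with the mean profile of the 10 splicing genes, against 11.6% of all genes compared. Snhg1 was at 0.902 and Snhg12 at 0.765, while Malat1 was at 0.0897 and Kcnq1ot1 at −0.393. None was called by edgeR at the study's cutoffs, and 3 had an unadjusted p under 0.05. Malat1, which lies in nuclear speckles with SR proteins, had a log2 difference of 0.46 (SE 0.164, adjusted p = 0.736), and Snhg12 one of −0.49 (SE 0.143, adjusted p = 0.612).

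Of 9 circadian output genes, 8 averaged 1 RPKM or more and were compared. Of these, 2 correlated above 0.5 with the mean profile, against 11.6% of all genes compared. They were Per1 (0.791), which is also an immediate early gene in many cells, and Nr1d2 (0.555). Ciart, which averaged less than 1 RPKM and was not compared, had a rho of 0.83. Per3 (−0.307) and Nr1d1 (−0.261) were the lowest. None was called, and 2 had an unadjusted p under 0.05: Per3 (log2 difference 0.21, SE 0.0804, adjusted p = 0.746) and Tef (−0.13, SE 0.0596, adjusted p = 0.749). The temperature-linked RNA-binding genes Cirbp and Rbm3 were at 0.164 and 0.267, and neither was called or had an unadjusted p under 0.05.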
